A study of Drosophila melanogaster with 3 samples.

Results

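Zasp66 (FBgn0035917), Zasp52 (FBgn0265991), Msp300 (FBgn0261836), Lmpt (FBgn0261565) and Svil (FBgn0266696) encode proteins of the muscle Z-disc and of scaffolds that tie actin to membranes, adhesions and nuclei. All exon lines that carry these 5 gene identifiers were taken from a catalogue of full-length isoforms of Drosophila heads. This gave 16 isoforms built from 98 exon lines, of 5272 isoforms of 4059 identified genes and 25067 exon lines in all. The RNA came from whole heads of untreated adult w1118 flies, a laboratory strain labelled as wild type, aged 3 days and kept at 25 °C. The 3 Iso-seq libraries, in which single molecules of cDNA are read from end to end on PacBio instruments, form 1 group and were pooled into 1 catalogue before assembly. The catalogue gives exon positions on dm6 and no abundance, so an isoform here is detected or not detected, no value per library exists, and no test or replicate error could be computed. How deeply each library was sequenced is unknown here. Isoforms had been kept only with at least 2 full-length reads and with a 5′ end at a mapped promoter.

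A sarcomere is bordered by Z-discs, where actin filaments of opposite orientation are cross-linked by alpha-actinin. Zasp66 and Zasp52 belong to the PDZ-domain Zasp family, whose members bind alpha-actinin and help build and hold the Z-disc. Msp300 is a nesprin, a giant spectrin-repeat protein that links the nuclear envelope to the cytoskeleton and spaces the nuclei of muscle fibres. Lmpt, or Limpet, is a protein of several LIM domains, which are zinc-binding modules that mediate protein contacts, and Svil is the fly supervillin, a relative of villin and gelsolin that binds actin at membranes. Genes of this kind often make several proteins from alternative start sites and exons, so the question put to the catalogue was which of their annotated starts, splice chains, reading frames and 3′ ends were present as whole molecules in heads.

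The label was first set against marker genes of the catalogue. Over the whole annotation, 28.8% of 13986 protein-coding genes had an isoform. All 6 striated muscle markers had one, among them Mhc, the myosin heavy chain, with 1 isoform and up, troponin T, with 8. Of the 4 genes listed as markers of the indirect flight muscles of the thorax, Act88F, fln and TpnC4 were not detected under these filters, and Mf, myofilin, which is a thick filament protein of insect muscles in general, had 2 isoforms. Of the markers of head tissue, 7 of 7 photoreceptor genes, 3 of 6 neuronal genes and 3 of 4 glial genes had an isoform. The neuronal genes brp, elav and Syn and the glial gene repo were not detected under these filters. A marker without an isoform therefore does not show that its tissue was absent. Of the other lists, 3 of 5 fat body genes had an isoform, led by apolpp with 5, and 1 of 4 ovary and germline genes, grk, had 1. The cell type that made each isoform cannot be told from a whole-head catalogue.

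The 5 genes differed widely in how many isoforms they had. Svil had 5 isoforms, Zasp66 and Lmpt had 4 each, Msp300 had 2 and Zasp52 had 1. Thus 4 of the 5 genes had at least 2 isoforms, against 14.7% of the 4035 catalogue genes that matched the annotation, and 3 of the 5 had at least 4, against 1.76%. Transcription start sites (TSSs) were counted by merging 5′ ends within 50 nt, and polyadenylation sites (PASs) by merging 3′ ends within 150 nt. A PAS here is thus a merged 3′ end, and its polyadenylation was not examined. Lmpt and Svil had 4 TSSs each, and 5 genes of the whole catalogue had 4 or more. Zasp66 and Msp300 had 2 TSSs each, so 4 of 5 genes had an alternative TSS, against 5.53% of all genes. Svil had 5 PASs, Lmpt 3 and Msp300 2, while Zasp66 and Zasp52 had 1 each, so 3 of 5 genes had an alternative PAS, against 7.16% of all genes. In total, the 16 isoforms used 13 TSSs and 12 PASs in 14 combinations. These shares describe 5 genes that were chosen with earlier results of these data known, and they carry no test.

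**Figure D1:**
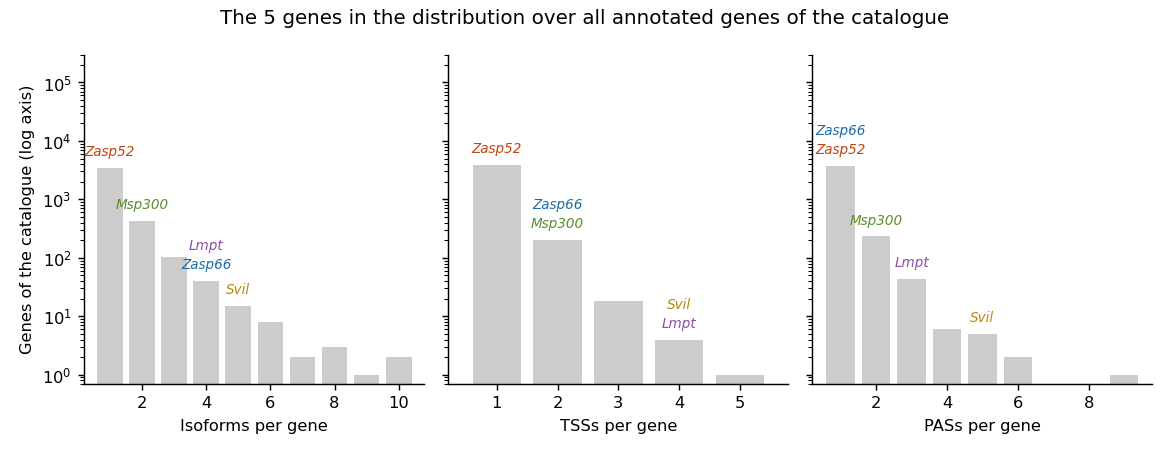
Histograms of isoforms, TSSs and PASs per gene (x axes, counts) over the 4035 annotated genes of the catalogue (y axis, number of genes on a log axis), with the 5 genes named above the bars they belong to. Svil and Lmpt stand at 4 TSSs, Svil alone of the 5 stands at 5 PASs, and Zasp52 stands at 1 in every panel.

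The genes differed in the length of their longest isoform relative to their longest annotated transcript. The longest isoform of Zasp66 had 1853 nt, which was 103% of the longest annotated transcript of the gene (1793 nt). The longest Lmpt isoform had 3050 nt, 41.1% of 7424 nt, and the longest Svil isoform had 4737 nt, 31.7% of 14937 nt. For Zasp52 the only isoform had 1701 nt, 22.9% of 7418 nt, although 1329 nt of it lay outside annotated exons, and for Msp300 the longest isoform had 4997 nt, 11.6% of 43121 nt. Hence 3 of the 5 genes stayed below 40%, against 6.99% of all genes, whose median was 96.3%. The longest isoform of the whole catalogue had 8621 nt, so most annotated Msp300 transcripts are longer than any isoform in it. Of the 11 annotated Msp300 transcripts, 1 is no longer than 8621 nt, against 26 of 31 for Svil and all those of the other 3 genes. The lengths of the reads behind the isoforms were not examined. Library preparation favoured molecules over 3 kb by size selection, and 4 of the 16 isoforms exceeded that length, against 23.3% of all multi-exon isoforms. Msp300 and Svil are 2 of the protein-coding genes with an annotated transcript of at least 10 kb, of which 45.9% of 181 had an isoform at all. Among the 83 that did, 20.5% had an isoform with the complete coding region of an annotated transcript, and so had Svil but not Msp300. The median spliced length was 2603 nt for the 16 isoforms and 1990.5 nt for all isoforms.

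**Figure D2:**
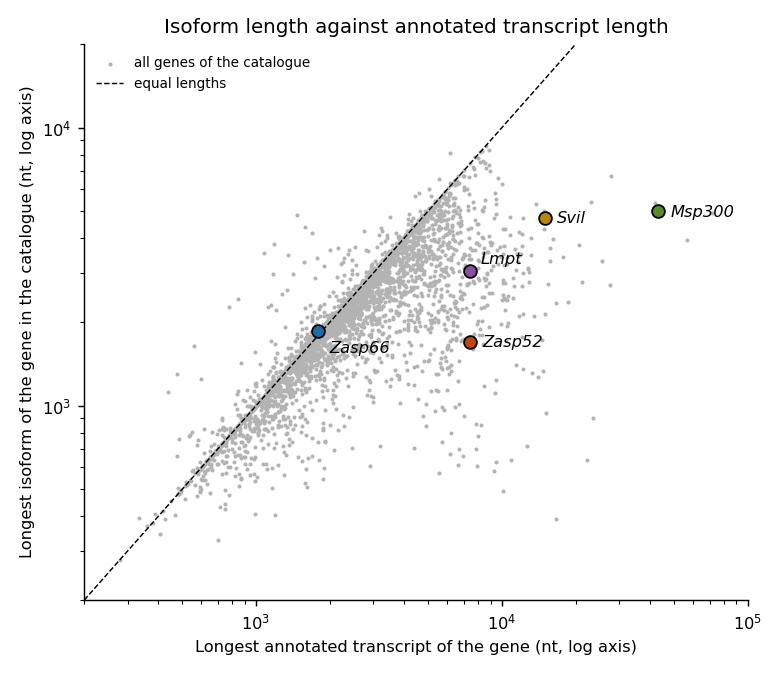
Longest isoform of each gene in the catalogue (y axis, nt) against its longest annotated transcript (x axis, nt), both on log axes, for all matched genes (grey) and the 5 genes (coloured, named). Zasp66 lies on the line of equal lengths, and the other 4 lie below it, with Msp300 farthest to the right at 43121 nt annotated and 4997 nt recovered.

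Zasp66 was the gene with whole transcripts throughout. It lies on the plus strand at chr3L:8624371-8638813 (dm6) and has 12 annotated transcripts. Its 4 isoforms, numbered from the most upstream start, all followed annotated splice chains, namely those of Zasp66-RF (isoform Zasp66-1, 9 exons, 1853 nt), RB (Zasp66-2, 7 exons, 1621 nt), RA (Zasp66-3, 8 exons, 1351 nt) and RH (Zasp66-4, 6 exons, 1119 nt). The isoforms made up a complete set of 2 starts by 2 splice forms. Zasp66-1 and Zasp66-2 started at position 8626210, and Zasp66-3 and Zasp66-4 started 4034 nt downstream, at 8630244. From each start, 1 isoform held and 1 lacked an adjacent pair of coding exons of 72 nt (8635681-8635752) and 160 nt (8637439-8637598). All 4 isoforms ended at 8638813 and kept the 39 nt exon at 8638157-8638195, and internal exons of 60 nt or less were found in 8.35% of all multi-exon isoforms.

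The alternative start and the alternative exons both changed the annotated reading frame. The upstream start led to the start codon at 8626394 and the downstream start to the one at 8630555. The 72 nt exon is a multiple of 3 and the 160 nt exon is not, so the last exon was read in a different frame depending on the pair. With the pair, the frame ended at 8638353, 460 nt before the 3′ end, and without it at 8638273, 540 nt before the 3′ end. The annotated proteins have 402 amino acids for Zasp66-1, 298 for Zasp66-2, 239 for Zasp66-3 and 135 for Zasp66-4. The 4 isoforms thus covered 79.3% of all annotated coding bases of the gene. The most upstream annotated start, at 8624371 and shared by RE, RN and RO, had no isoform under these filters. In the annotation, RA, RB and RF end at 8638673, and the isoforms with their chains ran to the end annotated for RH, 140 nt farther on.

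Lmpt (plus strand, chr3L:16865295-16922487) has 15 annotated transcripts from 7 start sites, and 4 of those starts were used, each by 1 isoform. Lmpt-1 started at 16865296, had 10 exons and 2904 nt and followed the chain of Lmpt-RM. Lmpt-2 started 25931 nt downstream at 16891227 and had 9 exons and 2863 nt. Lmpt-3 started at 16899416 and had 3 exons and 3050 nt, as Lmpt-RL. Lmpt-4 started at 16916256 and had 5 exons and 1372 nt. Every isoform held a whole annotated reading frame, with 559 amino acids for Lmpt-1, 558 for Lmpt-2, 694 for Lmpt-3 and 245 for Lmpt-4, and every TSS led to a start codon of its own.

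Behind their own starts, Lmpt-1, Lmpt-2 and Lmpt-4 met in the same 3′ part of the gene. Lmpt-1 and Lmpt-2 shared 2406 exonic nt and 6 junctions, and Lmpt-4 shared 945 nt and 2 junctions with each of them. These 3 isoforms ended their frame at the same stop codon, at 16921594. Lmpt-1 and Lmpt-2 ended at 16922487, the annotated end, and Lmpt-4 ended 463 nt upstream at 16922024, within the same annotated 3′ UTR. Lmpt-3 shared no exonic base with the others. It joined a 2653 nt first exon, which held 2016 coding bases, to a 63 nt exon and a 334 nt last exon and ended at 16907156, upstream of the other 3′ ends by 14868 to 15331 nt. The start at 16899416 was thus seen with the upstream 3′ end, and the other 3 starts with 3′ ends in the last exon of the gene.

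Of the 4 isoforms with a splice form that the annotation lacks, 2 belonged to Lmpt. Lmpt-2 joined annotated junctions in a new combination, by putting the 4916 nt first intron of Lmpt-RH before a second exon of 365 nt that has these bounds in RD. Lmpt-4 had a first intron of 3020 nt (16916447-16919466) that no annotated transcript has, although both of its splice sites are annotated. It was the only unannotated junction among the 50 distinct introns of the 5 genes. Both changes lay upstream of the start codon and left the coding region as annotated for RD and RH (Lmpt-2) and for RA, RE and RI (Lmpt-4). The giant form Lmpt-RK, of 7424 nt and 2147 amino acids, starts where Lmpt-3 does and was not detected under these filters. The 4 isoforms covered 47.1% of the annotated coding bases.

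**Figure D3:**
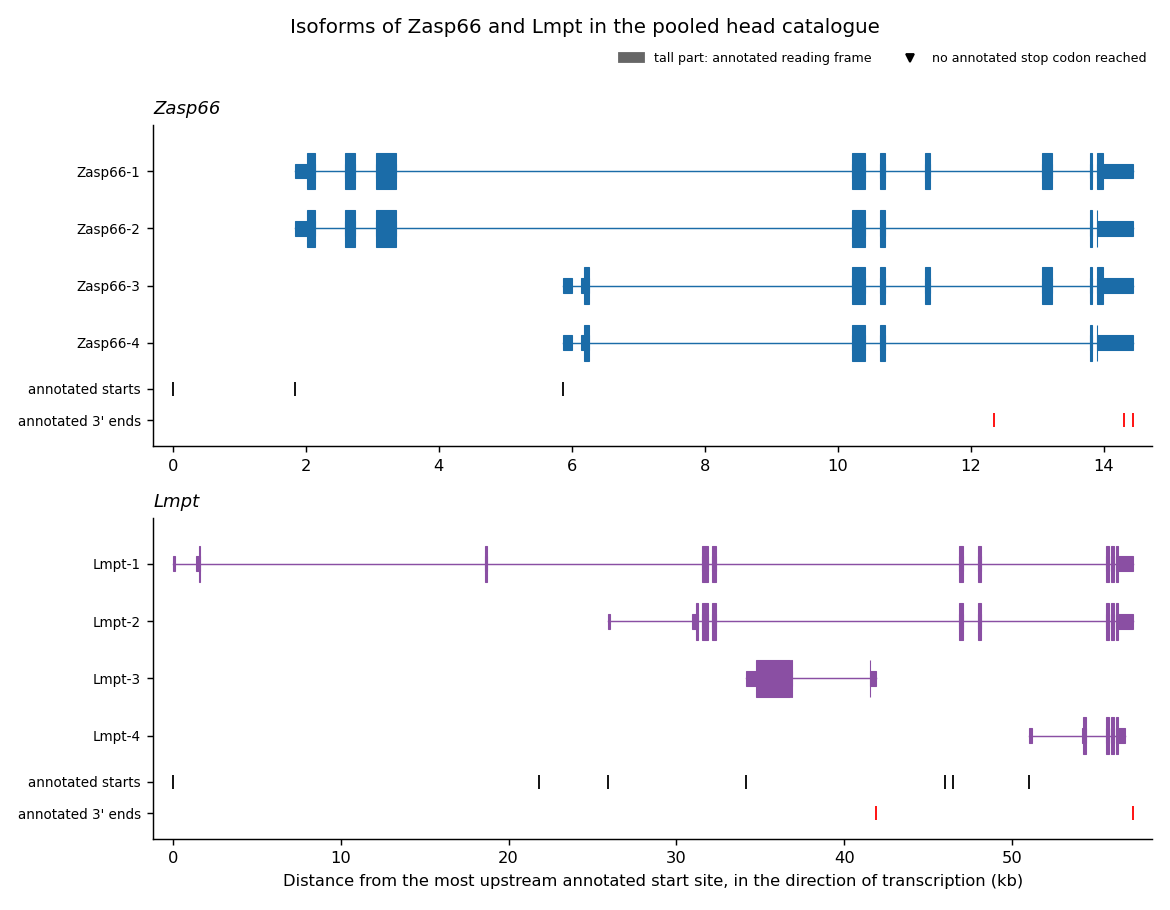
Exon maps of the isoforms of Zasp66 and Lmpt, with exons as boxes, introns as lines and the annotated reading frame as taller boxes, against distance from the most upstream annotated start site (x axis, kb). Ticks mark annotated starts (black) and annotated 3′ ends (red). Zasp66 shows 2 starts, each with and without the same 2 exons, and Lmpt shows 4 starts, of which the one of Lmpt-3 leads to an upstream 3′ end.

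Svil (plus strand, chr3L:2377655-2499226) has the most annotated transcripts of the 5 genes, 31, from 16 start sites, of which 4 were used. Its 5 isoforms overlapped only in part. Svil-1 ran from 2428911 to 2439829 (3 exons, 2453 nt). Svil-2 ran from 2457904 to 2464849 (4 exons, 2851 nt), and Svil-3 ran from the same start to 2495074 (7 exons, 2027 nt). Svil-4 ran from 2466862 to 2499226 (9 exons, 4737 nt, as Svil-RY), and Svil-5 from 2494539 to 2498928 (7 exons, 3828 nt, as Svil-RAA). No isoform reached from the upstream starts to the downstream end, as the annotated Svil-RAE of 14937 nt and 4526 amino acids does. Of the 10 pairs of isoforms, 6 shared no exonic base and 7 shared no junction.

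The downstream end of Svil was recovered with whole reading frames. Svil-4 held the frame of Svil-RY and RZ with 1156 amino acids, and Svil-5 that of Svil-RAA with 1111 amino acids. They shared 3601 exonic nt and 5 junctions and the stop codon at 2498645, and they differed in the start codon, at 2485076 for Svil-4 and 2494748 for Svil-5. Their 3′ ends lay 298 nt apart in the same 3′ UTR. Svil-5 had no intron above 245 nt, whereas Svil-4 had introns of 17294 nt and 9782 nt in its 5′ part.

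The single start at 2457904 was the only TSS of the 5 genes seen with more than 1 PAS. Svil-2 left it for the 3′ end at 2464849, which is annotated for other starts, and Svil-3 for an end 30225 nt farther downstream. Both shared the first 3 exons, 1058 nt in all. Svil-2 then entered a last exon of 1793 nt, and this combination of annotated junctions is in no annotated transcript. Its frame opened at the start codon of Svil-RJ and RX (2459955). It stayed in register with the coding region of the last exon up to the stop codon at 2464303, which gives 522 amino acids. No annotated transcript pairs this start codon with this stop codon. Svil-RP, of 663 amino acids, has another start codon but the junctions of this frame and the same stop codon. Svil-3 crossed an intron of 18986 nt, the longest of the 5 genes, and stopped inside a coding exon after 64 of its 142 nt. Svil-1 stopped 1 nt before the end of the third exon of the isoform, where 19 annotated transcripts have coding sequence, after 2061 nt in frame. Neither Svil-1 nor Svil-3 reached an annotated stop codon. All 5 isoforms together covered 48.4% of the annotated coding bases.

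Other genes of the catalogue lay within Svil introns. An isoform of Cyp4d20 (FBgn0035344, minus strand, 1816 nt), a cytochrome P450 gene, lay in the long introns of Svil-3 and Svil-4. The 2 isoforms of CG1146 (FBgn0035346, plus strand) lay in the 9782 nt intron of the same Svil isoforms. None shared an exonic base with Svil.

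Msp300 (plus strand, chr2L:5100877-5207002) was represented by 2 isoforms that shared no exonic base, from the upstream part and the middle of the gene. Msp300-1 started at 5108513 and had 2 exons and 2753 nt. Its first exon of 2509 nt held 1876 coding bases, and its second exon ran through the 62 nt of the annotated exon and 182 nt into the next intron, where the isoform ended at 5117820. The frame opened at the start codon of RB, RD and RL (5109146) and held 1938 nt without a stop codon up to that splice site. Msp300-2 started 37874 nt farther downstream at 5146387, with 7 exons and 4997 nt, the longest of the 16 isoforms. It joined the start of the short form Msp300-RF to the junction into the giant exon of RE, RG and RM, a combination that is not annotated. It stopped at 5161232 after 2778 nt of that exon, whose annotated forms have 6945 to 28074 nt, and so lacked a stop codon. From the start codon at 5154579, which RE, RF, RG and RM share, its frame was open for 3891 nt. The junctions within this frame are all those of RE, RG and RM, so the unannotated combination concerns the part upstream of the start codon. The isoforms together covered 10.1% of the annotated coding bases, which code for up to 13540 amino acids in 1 transcript. The last exon of Msp300-2 was the only one of the 16 above 2 kb, against 5.63% of all multi-exon isoforms.

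Zasp52 (minus strand, chr2R:15762565-15817004) had the lowest share of annotated coding bases in the catalogue among the 5 genes. It has 22 annotated transcripts, with proteins of up to 2194 amino acids. Its 1 isoform started at 15817004, the most upstream start, which is that of RC and RZ. A first exon of 245 nt was spliced over 13272 nt to a second exon of 1456 nt. The annotated second exon has 127 nt, and the isoform ran 1329 nt beyond it into the intron and ended at 15802032, with a signed distance of -21192 nt to the nearest annotated 3′ end (negative means upstream). The start codon at 15803471 was included, with 111 coding nt after and including it, or 1.22% of the annotated coding bases. The last exon lies opposite an intron of tun (FBgn0034046, plus strand), with which it shared no exonic base. The start at 15814917, from which most annotated Zasp52 transcripts begin, had no isoform under these filters.

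**Figure D4:**
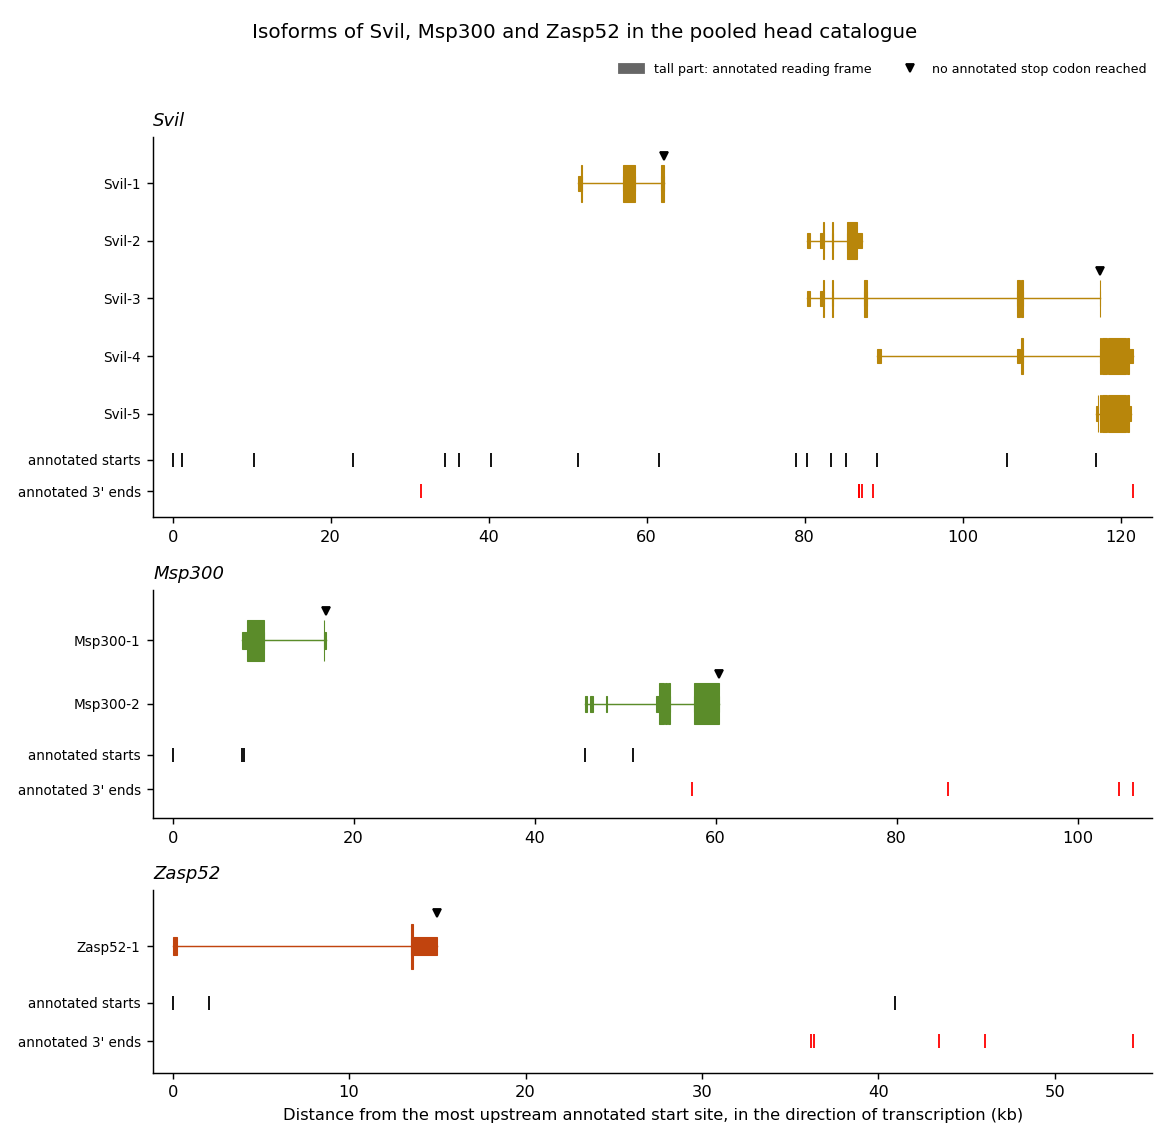
Exon maps of the isoforms of Svil, Msp300 and Zasp52 against distance from the most upstream annotated start site (x axis, kb), drawn as for Zasp66 and Lmpt, with taller boxes for the annotated reading frame. Triangles mark the 5 isoforms that end before an annotated stop codon. Svil-1 shares no exonic base with the other Svil isoforms, Svil-4 and Svil-5 share 3601 nt, and those of Msp300 and Zasp52 end far upstream of most annotated 3′ ends (red ticks).

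The 5′ ends and the 3′ ends of the 16 isoforms differed in how they met the annotation. All 16 isoforms had a 5′ end within 1 nt of an annotated start, against 95.8% of all multi-exon isoforms. The isoforms had been filtered on supported promoters, so this closeness was partly set by how the catalogue was made. They used 13 of 34 annotated starts of the 5 genes. By contrast, 9 of the 16 isoforms had a 3′ end within 1 nt of an annotated one, against 61.5% of all. The other 7 ended more than 150 nt away, against 24.7% of all. Of these 7, Lmpt-4 and Svil-5 ended in an annotated 3′ UTR, downstream of the stop codon. Svil-1, Svil-3 and Msp300-2 ended in a coding exon, against 8.50% of all multi-exon isoforms, and Zasp52-1 and Msp300-1 ended in an intron, against 3.83%. The base sequence at these ends was not analysed here. Of 18 annotated PASs of the 5 genes, 5 were used, with none in Msp300 or Zasp52.

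Of the splice chains, 8 of 16 were annotated in full, against 80.0% of all multi-exon isoforms. A further 4 (Svil-1, Svil-3, Msp300-1 and Zasp52-1) were part of a longer annotated chain, against 13.0%. These 4 were among the 5 isoforms that reached no annotated stop codon. Whether the intronic bases of Msp300-1 and Zasp52-1 hold a stop codon was not examined. New combinations of annotated junctions were found in 3 isoforms (Lmpt-2, Svil-2 and Msp300-2), against 5.52%, and a new junction in Lmpt-4, against 1.26%. No isoform had an unannotated splice site. A whole reading frame between an annotated start codon and an annotated stop codon was present in 11 of 16 isoforms, against 84.3%. The coding region of a single annotated transcript was held in full by 10 of them, against 82.5%.

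**Figure D5:**
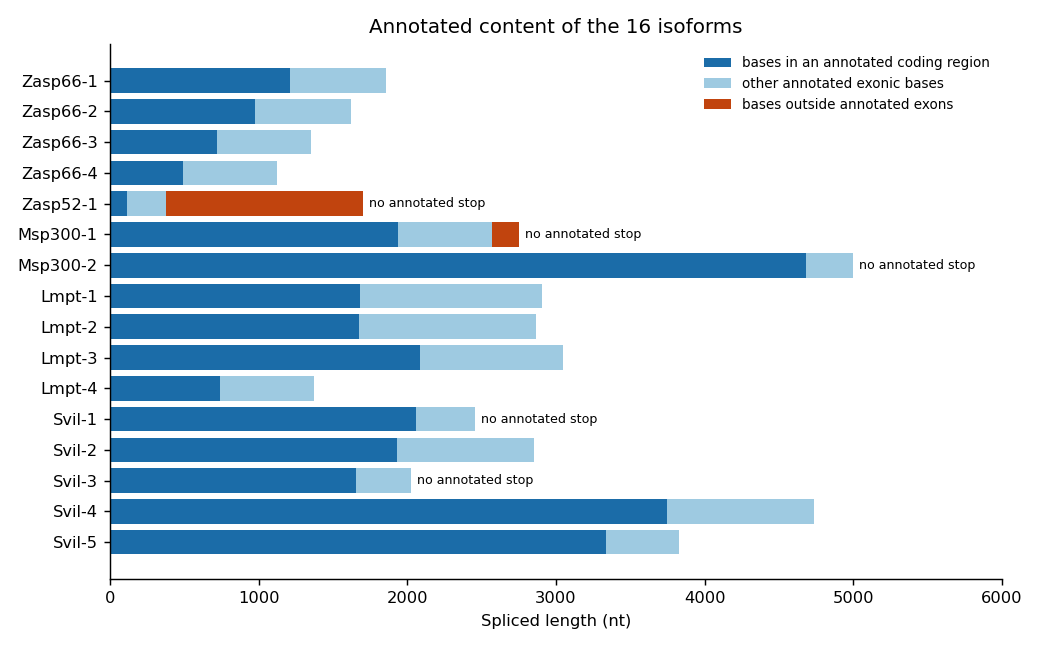
Spliced length of each of the 16 isoforms (x axis, nt), divided into bases in an annotated coding region, other annotated exonic bases, and bases outside annotated exons. Bases outside annotated exons occur in Zasp52-1 (1329 nt) and Msp300-1 (182 nt), and the 5 isoforms without an annotated stop codon are marked.

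The start codons behind each TSS were compared next. For each isoform 1 frame was kept, the longest, with frames that reach an annotated stop codon preferred. In Zasp66, Lmpt, Svil and Msp300 the frames kept for each TSS opened at a start codon that opened those of no other TSS of the gene. The start codon of Svil-4 at 2485076 also lies in Svil-3, inside a frame that opens farther upstream. The same held for 53.7% of the 216 catalogue genes with 2 or more TSSs whose isoforms all hold an annotated start codon. A pair of isoforms without a common exonic base was present in Svil, Lmpt and Msp300, which is 3 of the 4 genes with several isoforms, against 2.86% of 595 such genes. Internal exons that lie within an intron of another isoform were found in Zasp66 and Lmpt, against 28.4% of those genes.

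Long introns were spliced in isoforms of Lmpt, Svil and Zasp52. An intron of at least 10 kb was spliced in 5 of 16 isoforms (Lmpt-1, Lmpt-2, Svil-3, Svil-4 and Zasp52-1), against 10.8% of all multi-exon isoforms. The 50 distinct introns of the 5 genes had a median of 1209 nt and ranged between 54 nt, in Msp300-2, and 18986 nt, in Svil-3. Lmpt-1 spliced introns of 16972, 12799 and 14500 nt, and Lmpt-2 shared the last of these. At the other end, 9 of the 50 introns were shorter than 100 nt, 5 of them in the 3′ part of Svil that Svil-4 and Svil-5 share.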

How the data were processed

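Isoforms were read from 1 deposited catalogue of Drosophila head Iso-seq, in which the values of other units than expression are exon coordinates: the authors give the start and end of each exon on dm6, with no abundance. Per the labels and the study's methods, libraries of 0.5 µg total RNA underwent 14 cycles of PCR and a size selection for molecules over 3 kb before sequencing on 3 SMRT cells. The authors made consensus reads, merged the replicates, aligned them with STARlong and assembled isoforms with FLAIR, using short-read junctions, a promoter database, up to 5 ends per splice chain and at least 2 full-length reads. Whether their 3′ end filter was applied to this catalogue is unknown here.

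The catalogue was compared with the Ensembl release 115 annotation of BDGP 6.54, whose assembly is dm6 and which is more recent than the annotation the authors used. Of 4059 gene identifiers, 4035 matched. Left ends lie 1 nt right of annotated left ends in 3658 multi-exon isoforms, so ends within 1 nt were called equal. A splice chain was assigned to an annotated transcript, to a stretch of one, to a new combination of known junctions, or to a class with an unannotated junction or splice site. Reading frames were followed from annotated start codons base by base, as long as an annotated coding region of the gene had the same codon position. Shares of all genes or all multi-exon isoforms (4671 of matched genes) include the 5 genes. The scripts ran in Python 3.11.15 and were tested on simulated structures, of which all 8 kinds were recovered.

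All isoforms of the 5 genes are named. Of each gene list, up to 4 genes with most isoforms are named (ties by identifier), beside genes named as defining markers. Listed symbols that did not match the annotation in their exact spelling were left out of the counts. For each of the genes with 2 or more isoforms, up to 3 genes are named with the smallest sum of differences in numbers of isoforms, TSSs and PASs. The 5 genes and the lists were chosen with earlier results of these data known. No test was made, since the 3 libraries form 1 pooled group. Alternatives were other windows for merging ends and for nearness to annotated ends, another rule for assigning genes, and chains without their first and last junction. No genome sequence was used, so no sequence is shown.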

Additional observations from a re-analysis of the deposited data

How the results depend on the processing

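No paired analysis was possible because the 3 libraries form 1 group and were pooled before deposit, and for the same reason no library could be left out. The 14 alternatives of 8 counts moved none of them by more than 1.5 times, and 11 gave the same value. TSSs remained 13 with 5′ ends merged within 10 or 300 nt. PASs were 12 with 3′ ends merged within 50 nt and 10 within 500 nt, where Lmpt-4 and Svil-5 lose their own PAS, and the TSS-PAS combinations were 14 throughout. Assigning isoforms to genes by shared exonic bases again gave 16. Without the first and last junction, the remaining chain was annotated in all 12 isoforms that keep a junction, against 8 annotated whole chains. That rule accepts a stretch of any annotated transcript and is looser than a match of the whole chain, so these counts are not alike. An annotated 3′ end lay within 10, 50 or 150 nt of the same number of isoforms, 9, and an annotated 5′ end within 1 or 50 nt of 16. The requirement that 1 annotated transcript holds the whole coding region was chosen after seeing the data and gave 10 isoforms in place of 11. Poly(A) signals, A-rich stretches and longest reading frames were not run, since they need the genome sequence. Without abundance or depth, an isoform that is not listed was not detected under these filters and may be present.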

Other observations

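Partner genes of the 5 proteins were looked up in the same catalogue, where 28.8% of the 13986 annotated protein-coding genes had an isoform. Of the Z-disc and I-band genes, 9 of 13 matched symbols had an isoform. These included stv (starvin, a co-chaperone of the Z-disc) with 5, tmod (tropomodulin, which caps actin filaments) with 3, Mlp84B (a muscle LIM protein) with 2 and Actn (alpha-actinin) with 1. Actn was recovered as 1 isoform of 3305 nt with a complete annotated coding region, and sls, the titin-like protein of the I-band, as 1 isoform of 3953 nt without one, where the annotation reaches 56489 nt. Zasp67, the third member of the Zasp family, had no isoform under these filters. Of the thick filament and M-line genes, 7 of 9 had an isoform, with 2 each for bt (projectin) and Mf and 1 each for the myosin light chains Mlc1 and Mlc2. The longest bt isoform had 2710 nt, where the annotation reaches 27666 nt. Neither bt nor Mhc had a complete annotated coding region, while Mf, Mlc1 and Mlc2 had one.

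Of the integrin adhesion genes, 8 of 13 had an isoform. CAP, an adaptor protein of the vinexin family, had 4 isoforms, stck (PINCH) 2, and Vinc (vinculin) and Zyx (zyxin) 1 each. The integrin subunit genes mys, if and mew were not detected under these filters. Among nuclear anchoring genes, 5 of 8 matched symbols had an isoform. The spectraplakin shot had 5, and klar (a KASH-domain protein), Klc (kinesin light chain) and LamC (lamin C) had 2 each. No shot isoform held a complete annotated coding region, and the longest had 6695 nt, where the annotation reaches 27842 nt. For klar, Klc and LamC an isoform held one. Of the 9 listed symbols, EB1 was left out of this count because the annotation spells it Eb1, a gene with 3 isoforms. Of the LIM-domain and villin/gelsolin relatives 2 of 7 had an isoform, Gel (gelsolin) with 3 and stck with 2.

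The numbers of isoforms, TSSs and PASs of Svil were most like those of shot, another giant cytoskeletal linker, with 5 isoforms, 4 TSSs and 4 PASs, followed by apolpp with 5, 1 and 5 and CLIP-190 with 5, 2 and 4. Those of Lmpt were nearest to CG18135 and Hsc70-3 (4 isoforms, 3 TSSs and 2 PASs each) and to shot. CG11791, Galphaq and crc had the same counts as Zasp66, as 5 genes did in all. The counts of Msp300 were common, with 51 genes at the same values, of which jar, MRP and gw were nearest in length.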
